A study of Mus musculus with 7 samples.

Results

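The genes described here encode the collagens, laminins and integrins. Among them are the chains of the basement membrane around vessels and the receptors that hold cells to it, beside collagens of other connective tissue and integrins of leukocytes. They were chosen by symbol among the 20807 autosomal protein-coding genes of the mouse GENCODE annotation: Col followed by a digit and a, Lama, Lamb or Lamc followed by a digit, and Itga or Itgb followed by a digit or by X, V, E, L, M or D. The pattern matched 81 genes. Col4a3bp, which encodes a ceramide transfer protein and not a collagen, was set apart. The remaining 80 genes were 42 collagens, 11 laminins and 27 integrins.

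ATAC-seq marks exposed DNA by the cuts of a transposase, and it had been applied to endothelial cells of the mouse retina at postnatal day 6. All mice carried the FUCCI reporter, whose fluorescence follows the cell cycle, and living cells were sorted as CD31+ and CD45-. Cells with no reporter colour made up the early G1 group (3 libraries), and red cells made up the late G1 group (4 libraries). The phase of a cell was therefore assigned by its colour. The libraries of a group had been pooled into 1 peak list, which leaves every value without a replicate error and allows no test between the groups. Nothing in the labels states whether libraries came from separate animals.

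Type IV collagen forms the network of the basement membrane, and laminin trimers of an alpha, a beta and a gamma chain form another, polymerised sheet on the cell side. Integrins are pairs of an alpha and a beta chain that span the membrane and bind these sheets, fibronectin or ligands on other cells. Growing retinal vessels lay down both sheets, and the tip of a sprout uses integrins to move over matrix laid down ahead of it.

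The lists differed in breadth. The early G1 list had 575882 autosomal peaks that covered 42.0% of the autosomes, from 137191808 fragments. The late G1 list had 360498 autosomal peaks that covered 13.6%, from 124693948 fragments. Counts of promoter peaks are read for that reason beside the shares over all 20807 genes. A promoter peak is a peak that overlaps, by at least 1 bp, the 1 kb on either side of the start of any protein-coding transcript of the gene. The 5′ window is the 1 kb on either side of the annotated 5′ end. The region of a gene is its body and the 10 kb upstream. Pileup, the mean number of fragments stacked over a peak, and fold, its ratio to the local expectation, are the authors' values and are ranked only within their own list.

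The genes at the centre of the results are shown by 6 stretches of the mm10 genome, each 250 bp long and written 5′ to 3′ on the strand of the gene. The stretches from peaks are the peak centres. They comprise the Col4a2 intron that carried the strongest early peak near the Col4a1 and Col4a2 starts, the strongest late peak of Col4a2, a strong late peak of Col4a1 with no early peak over it, the strongest late peak of any laminin, and the promoters (from RefSeq) of Lama5 and Itgb1, whose starts lay under late peaks. Capitals mark exact matches, on either strand, to the words searched, which were CCAAT, the GC box GGGCGG, the TATA box TATAAA, the AP-1 word TGANTCA, the ETS word CCGGAAG, the SOX word ACAATGG, the forkhead word TGTTTAC, the RUNX word TGTGGT, the GATA word GATAAG, the TEAD word ACATTCC, the RBPJ word TGGGAA and the E-box CACGTG. Each word was searched by itself, so that matches may overlap.
Col4a2 intron, early peak, chr8:11314131-11314380, plus strand: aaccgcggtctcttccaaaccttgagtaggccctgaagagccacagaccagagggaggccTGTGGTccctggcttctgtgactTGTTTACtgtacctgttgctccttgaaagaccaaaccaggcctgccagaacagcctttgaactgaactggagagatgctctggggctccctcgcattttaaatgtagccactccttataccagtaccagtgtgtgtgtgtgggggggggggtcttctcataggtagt
Col4a2 intron, strongest late peak, chr8:11378859-11379108, plus strand: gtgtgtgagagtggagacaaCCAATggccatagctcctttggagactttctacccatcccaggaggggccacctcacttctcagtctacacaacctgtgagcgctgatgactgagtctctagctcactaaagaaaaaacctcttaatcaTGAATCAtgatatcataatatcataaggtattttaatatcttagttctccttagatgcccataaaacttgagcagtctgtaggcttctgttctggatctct
Col4a1 intron, late peak, chr8:11272481-11272730, minus strand: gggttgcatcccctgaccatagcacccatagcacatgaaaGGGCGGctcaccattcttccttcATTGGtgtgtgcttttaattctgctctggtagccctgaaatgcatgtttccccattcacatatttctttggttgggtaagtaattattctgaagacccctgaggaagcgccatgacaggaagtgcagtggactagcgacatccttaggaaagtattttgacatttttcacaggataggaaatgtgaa
Lama2 intron, strongest late peak, chr10:27573371-27573620, minus strand: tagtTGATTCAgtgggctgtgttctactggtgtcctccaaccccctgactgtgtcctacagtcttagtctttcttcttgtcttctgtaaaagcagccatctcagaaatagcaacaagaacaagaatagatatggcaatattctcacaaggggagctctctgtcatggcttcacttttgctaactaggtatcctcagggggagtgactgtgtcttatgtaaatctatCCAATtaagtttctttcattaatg
Lama5 promoter, chr2:180225860-180226109, minus strand: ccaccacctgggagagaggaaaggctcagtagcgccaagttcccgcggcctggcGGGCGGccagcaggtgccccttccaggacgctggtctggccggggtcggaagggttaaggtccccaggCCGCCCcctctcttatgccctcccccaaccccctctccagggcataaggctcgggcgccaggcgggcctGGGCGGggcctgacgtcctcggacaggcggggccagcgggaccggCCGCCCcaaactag
Itgb1 promoter, chr8:128685404-128685653, plus strand: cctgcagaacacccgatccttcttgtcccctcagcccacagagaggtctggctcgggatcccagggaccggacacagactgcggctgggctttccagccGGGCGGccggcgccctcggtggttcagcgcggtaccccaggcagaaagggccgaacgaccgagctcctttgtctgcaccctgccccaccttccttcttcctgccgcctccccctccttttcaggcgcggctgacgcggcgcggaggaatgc

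The intron stretch of Col4a2 held a RUNX word and a forkhead word. Of all early peaks of at least 250 bp, 17.6% held the RUNX word and 3.62% the forkhead word in the same length. The strongest late peaks of Col4a2 and of Lama2 both held an AP-1 word and a CCAAT word. In the late list 7.24% of peak centres held the AP-1 word and 34.4% held CCAAT, and among the late peaks of the collagen, laminin and integrin regions these shares were 7.64% and 30.9%. The Lama5 promoter held 4 GC boxes and was 72.4% G or C, and the Itgb1 promoter held 1 GC box and was 68% G or C. RefSeq promoters were matched for 57 of the 80 genes, as 63 promoters. A GC box was in 46.0% of these, against 44.6% of the 19174 promoters of all genes. The ETS word was in 1.59% against 9.45%, and CACGTG was in 0 of the 63 against 6.82%. Counting error on 63 promoters is wide, and a match to a word is a description of the letters only.

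Col4a1 and Col4a2, which encode the ubiquitous chains of type IV collagen, lie head to head on chromosome 8. Col4a1 (ENSMUSG00000031502) spans chr8:11198423-11312826 on the minus strand, and Col4a2 (ENSMUSG00000031503) spans chr8:11312805-11449287 on the plus strand. Their annotated 5′ ends are 21 bp apart, and their regions share 20.022 kb with 5 early and 4 late peaks. The values near their starts are therefore values of the same DNA.

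No early peak lay in the 5′ window of Col4a1 or of Col4a2, and late peaks covered 1.45% and 0.400% of these windows. The common start site was thus nearly bare of peaks in both lists. The nearest peaks of both lists lay on the Col4a2 side, in its intron. The early peak spanned chr8:11313864-11314648, with a pileup of 63.74 and a 3.72-fold enrichment, at percentile 99.8 of early pileups. The late peak there spanned chr8:11313798-11314648, with a pileup of 29.13 and a 2.06-fold enrichment, at percentile 26.4 of late pileups. The same intron element was thus among the tallest peaks of the early list and among the low peaks of the late list. Its sequence is the Col4a2 intron stretch above.

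By the promoter rule Col4a2 had a peak in the late list only. That state rests on an edge: the late peak starts 993 bp from the Col4a2 start, inside the window, and the early peak starts 1059 bp from it, 59 bp outside. With 500 bp on either side, with at least 200 bp of overlap, or with only the more significant peaks of each list (those above its median -log10 q), Col4a2 had a promoter peak in neither list. With 3 kb it had promoter peaks in both. Col4a1 counted as having promoter peaks in both lists through its 2 internal protein-coding starts at 11210831 and 11279656. At its 5′ end alone it had a late peak only.

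Beyond the start, Col4a1 and Col4a2 differed in how much of each region lay under peaks. The Col4a1 region held 29 early and 14 late peaks, which covered 44.1% and 11.4% of it, at percentiles 42.7 and 30.2 of all genes. The Col4a2 region held 36 early and 31 late peaks, which covered 52.0% and 19.2%, at percentiles 73.8 and 72.2. Col4a2 thus ranked above Col4a1 in both lists. Of their late peaks, 11 of 14 at Col4a1 and 23 of 31 at Col4a2 overlapped an early peak, against 68.3% of all autosomal late peaks.

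The strongest late peaks of both genes were intronic. At Col4a2 the late peak at chr8:11378849-11379119 reached a pileup of 261.61 and a 15.8-fold enrichment, and the next, at chr8:11325842-11326266, reached 238.67. At Col4a1 the late peak at chr8:11290500-11291875 reached 254.43, and the next, at chr8:11272168-11273045, reached 245.24 with a 10.4-fold enrichment and no early peak over it. These 4 peaks stood at or above percentile 97.3 of late pileups, against 26.4 for the late peak at the intron element near the start. Between them and the start, a late peak at chr8:11317641-11318549 (pileup 116.94) overlapped an early peak at chr8:11318306-11318951 (pileup 42.47, percentile 98.5 of early pileups).

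**Figure D1:**
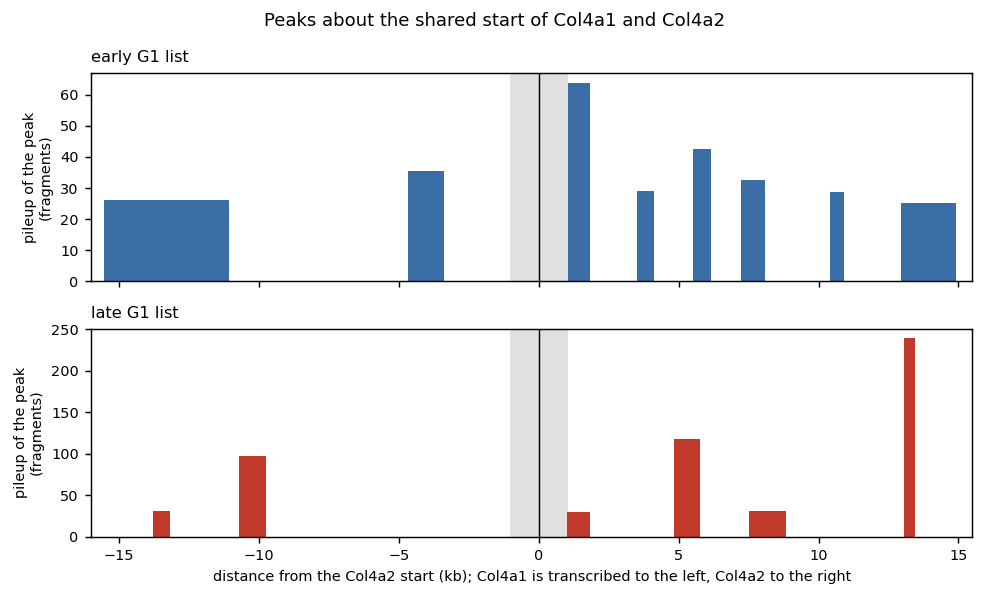
Peaks of the early G1 (top) and late G1 (bottom) lists about the shared start of Col4a1 and Col4a2, by distance from the Col4a2 start in kb, with the width of each bar to scale, the authors' pileup in fragments as its height and the 5′ window in grey. The early peak right of the window (pileup 63.74) is the tallest early bar, while the late peak there (29.13) is among the low late bars and the tallest late bar (238.67) lies inside Col4a2.

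Col4a3 and Col4a4 encode chains of type IV collagen that build specialised membranes such as those of the kidney glomerulus. They are also head to head, on chromosome 1, with 5′ ends 72 bp apart and 19.929 kb of shared region. Here the shared start lay under a late peak, chr1:82585590-82587409, with a pileup of 81.78 and a 7.03-fold enrichment. Late peaks covered 74.4% of the Col4a3 5′ window and 78.0% of the Col4a4 window, and early peaks covered 43.1% and 46.7%. The 2 early peaks at these windows lay to either side of the start. The start of this pair was therefore under a late peak and under no early peak, and the start of Col4a1 and Col4a2 was under neither. Inside Col4a4, a late peak at chr1:82525651-82525970 in an exon reached a pileup of 403.18 and a 25.8-fold enrichment.

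Early peaks reached the promoters of 78 of the 80 genes, against 94.2% of all genes, and late peaks those of 57, against 68.5%. In both lists there were 55 of 80, against 65.7% of all genes, and with early peaks alone 23 of 80, against 28.4%. The late list alone held a promoter peak of 2 genes, Col4a2 and Lama5, against 2.75% of all genes, and no gene of the 80 lacked a promoter peak in both lists, against 3.10%. Each of these counts was close to the share over all genes. A start lay under an early peak in 56 of 80 genes, against 73.3% of all genes, and under a late peak in 26 of 80, against 42.1%. The early count was close to the share over all genes and the late count stood below it, with a wide counting error on 80 genes.

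The window at the annotated 5′ end shows how much of that end lay under peaks. In Col25a1, Col27a1, Itga6 and Lama2 no protein-coding transcript starts inside this window. Within 1 kb of their protein-coding starts, late coverage was 73.3%, 42.9%, 48.9% and 0%, against 0%, 0%, 22.9% and 18.7% at the 5′ window. The 5′ window was free of early peaks in 3 of 80 genes, Col4a1, Col4a2 and Lama5, against 8.85% of all genes. It was free of late peaks in 28 of 80, against 40.0%. Early peaks covered it wholly in 9 of 80 genes, against 19.1%, and late peaks in 0 of 80, against 1.82%. Late peaks covered more of it than early peaks did in 16 of 80 genes, against 17.7%. These 16 were 11 collagens (Col1a1, Col4a1, Col4a2, Col4a3, Col4a4, Col5a2, Col6a1, Col6a4, Col13a1, Col19a1 and Col28a1), 4 integrins (Itgb1, Itgax, Itgb2l and Itgb7) and Lama5. All 4 autosomal type IV chains were thus among them, although Col4a1 and Col4a2 entered with 1.45% and 0.400%. These chains form head-to-head pairs whose 5′ windows are nearly the same DNA, so they are not 4 separate cases. Across the 80 genes, early and late coverage of the 5′ window were nearly unrelated (Spearman's rho 0.02, and 0.16 over all genes), a description across genes that share the same libraries.

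**Figure D2:**
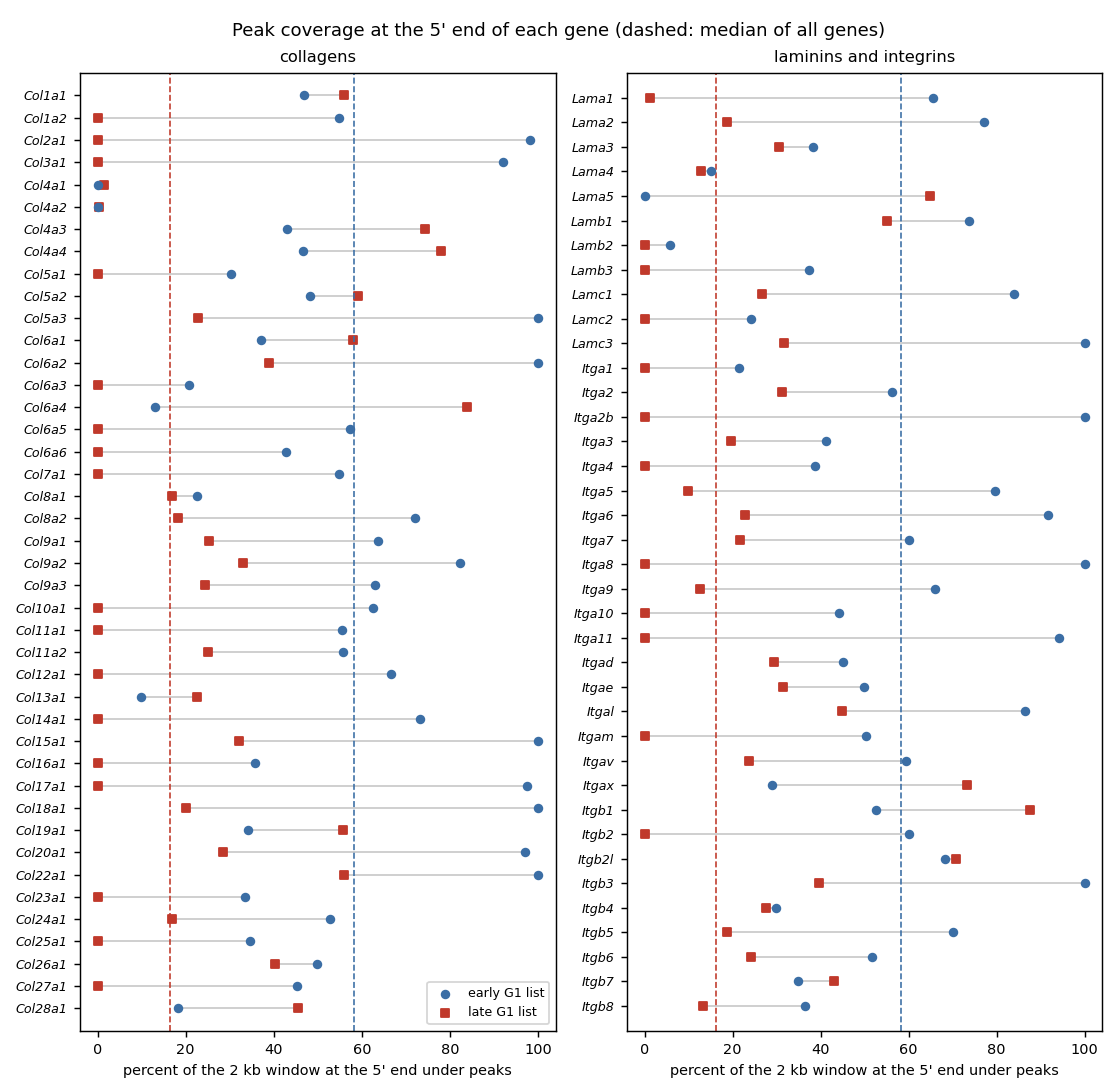
Percent of the 5′ window (1 kb on either side of the annotated 5′ end, horizontal axis) under early G1 peaks (circles) and late G1 peaks (squares) for each of the 80 genes (1 line each), with dashed lines at the medians of all genes. The square lies right of the circle in 16 genes, and Lama5 stands at 0% early and 64.9% late.

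The basement membrane also holds multiplexins, which carry heparan sulphate chains or chondroitin sulphate chains and release fragments that restrain vessel growth. Early peaks wholly covered the 5′ windows of Col18a1, the source of endostatin, and of Col15a1. Late peaks covered 20.0% of the Col18a1 window and 32.2% of the Col15a1 window. Over their regions, Col18a1 had 31 early and 25 late peaks (45.6% and 18.9% covered), and Col15a1 had 29 and 18 (56.4% and 16.6%). Both thus had promoter peaks in both lists. The short chain network collagens Col8a1 and Col8a2 also had promoter peaks in both lists, while Col10a1, known from growth plate cartilage, had an early peak only.

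Fibrillar collagens form the cross-striated fibres of connective tissue, and all 11 had an early promoter peak (94.2% of all genes) while 6 had a late promoter peak (68.5% of all genes). The 5 with an early peak only (28.4% of all genes) were Col1a2, Col2a1, Col3a1, Col5a1 and Col11a1. The chains of type I collagen, Col1a1 and Col1a2, differed from each other. The Col1a1 5′ window was covered 46.8% by early and 56.0% by late peaks, and the Col1a2 window 54.7% and 0%. Col3a1, which makes the fine fibres of vessel walls, had 92.0% and 0%. Over the regions, 17.0% of Col1a1 but 7.65% of Col1a2 and 8.25% of Col3a1 lay under late peaks, with early values of 50.3%, 50.9% and 49.4%. Over the region, Col1a1 thus stood above Col1a2 and Col3a1 in the late list and beside them in the early list, although each gene held only 4 late peaks.

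Type VI collagen forms beaded filaments, and its 6 genes divided by late promoter peak: Col6a1, Col6a2 and Col6a4 had one in both lists (65.7% of all genes) and Col6a3, Col6a5 and Col6a6 in the early list only (28.4%). The Col6a4 5′ window had 13.1% early and 83.9% late coverage, and the Col6a1 window 37.1% and 58.0%. The FACIT collagens, which decorate fibrils, had a late promoter peak in 8 of 9 genes, all but Col12a1, against 68.5% of all genes. Of the transmembrane collagens, Col13a1 and Col25a1 had promoter peaks in both lists, and Col17a1 and Col23a1 in the early list only. Among the rest, Col26a1 and Col28a1 had both and Col7a1, the anchoring fibril collagen of skin, the early peak only.

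Laminin alpha chains carry the main cell-binding domains, and Lama4 and Lama5 are the alpha chains of the endothelial basement membrane. Lama5 (ENSMUSG00000015647, chr2:180176373-180225859, minus strand) had no early peak in its 5′ window and 64.9% late coverage. Its late peak spanned chr2:180223899-180226157, 2259 bp over the start, with a pileup of 69.75 and a 4.82-fold enrichment. The nearest early peaks lay beyond both ends of that late peak, at chr2:180222277-180223656 and chr2:180227497-180228697. The start of Lama5 was thus under a late peak that fell in a gap of the early list, although early peaks covered 60.5% of its whole region, among the 3 highest values of the 80 genes. Lama5 kept its late-only state under every setting tried except the 3 kb window, where it had promoter peaks in both lists. The 5′ windows of Lama5, Col4a1 and Col4a2 were 61.5%, 63.7% and 63.3% G or C. They fell in the fifth of genes with the highest G or C content (57.3% to 77.0%), in which 3.85% of 4127 genes were free of early peaks and 18 of the 80 genes lay. The part of base composition in these gaps was not tested.

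Lama4 differed from Lama5 at its start, with 15.1% early and 12.7% late coverage of the 5′ window. The early peak there was 303 bp over the start, and the late peak lay downstream of the start, with a pileup of 19.9 at percentile 1.61 of late pileups. Over its region Lama4 held 43 early and 21 late peaks (44.1% and 11.4% covered). Lama1 and Lama3 had promoter peaks in both lists. Lama2, the chain of muscle and nerve basement membranes, had an early promoter peak alone, although 18.7% of the window at its annotated 5′ end, where no protein-coding transcript starts, lay under late peaks. It has the longest region of the 80 genes at 649.7 kb, with 160 early and 83 late peaks. Its strongest late peak, chr10:27573317-27573675 in an intron, had a pileup of 413.99, a 24.4-fold enrichment and no early peak over it.

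The beta and gamma chains complete the laminin trimers. Lamb1, the beta chain of the main endothelial laminins, had 73.8% early and 55.2% late coverage of its 5′ window. Lamb2, a beta chain best known from synapses and the kidney filter, had 5.75% and 0%. Its region ranked more differently in the lists than that of any other of the 80 genes: 59.7% of it lay under early peaks and 5.93%, the lowest value of the 80 genes, under late peaks. With a region of 20.8 kb that holds 6 early and 3 late peaks, 1 peak more or less moves this share strongly. Lamc1, the gamma chain of most laminins, had 84.0% and 26.8% of its 5′ window covered, and 37.0% and 12.4% of its region. All 3 gamma chains had promoter peaks in both lists, as did 65.7% of all genes.

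Among the integrin receptors, all 27 genes had an early promoter peak and 19 a late promoter peak, against 94.2% and 68.5% of all genes. The groups by ligand differed in the late list. All 6 beta chains outside the leukocyte set and all 3 laminin-binding alpha chains (Itga3, Itga6 and Itga7) had late promoter peaks, against 1 of 4 collagen-binding alpha chains, 2 of 4 chains that bind the RGD motif of fibronectin or vitronectin, and 1 of the 2 chains alpha4 and alpha9. These groups are small, and the late share over all genes was 68.5%.

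Itgb1, the beta chain that pairs with most matrix-binding alpha chains, had the highest late coverage of the 5′ window among the 80 genes, at 87.5%, beside 52.7% early. Its late peak, chr8:128684753-128686502, spanned the start with a pileup of 28.97, which is only percentile 26.1 of late pileups. Wide coverage at this start thus went with a low peak. Itgb3, which pairs with alphaV on sprouting vessels, had 100% early and 39.5% late coverage, and Itgb5, another alphaV partner, 70.0% and 18.6%. Itgb1 held 15 early and 8 late peaks in its region, Itgb3 18 and 12, and Itgb5 29 and 24.

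The laminin receptors Itga6 and Itga3 had 91.7% and 41.1% early and 22.9% and 19.6% late coverage of the 5′ window. No protein-coding transcript of Itga6 starts inside its 5′ window. The promoter windows at the protein-coding starts of Itga6 had 47.3% early and 48.9% late coverage, so the early excess was absent there. At the 5′ window the fibronectin receptor Itga5 had 79.5% early and 9.90% late coverage. Itgav, the alpha chain of the vitronectin receptors, had 59.3% and 23.7% at its 5′ window. Itgav was among the 3 genes of lowest early coverage over the region (30.8%), with 14.9% late. Of the collagen receptors, Itga2 had 56.1% and 31.1% at the 5′ window, and Itga1 had 21.5% and 0%. Itga1 and Itga2 pair with the same beta chain, Itgb1, and the late list thus held a promoter peak of the latter only. Itga10 and Itga11 had no late peak at their 5′ windows either.

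The leukocyte integrins are described apart because cells carrying CD45, the leukocyte antigen, were removed in the sort. All 8 had an early promoter peak and 6 a late promoter peak, near the shares over all genes (94.2% and 68.5%), the exceptions in the late list being Itgam and its beta chain Itgb2. Late peaks covered between 17.5% and 22.3% of the regions of these 8 genes, all above the median of all genes (14.8%), and early coverage was above its median (45.9%) in 5 of 8. At the 5′ window, Itgax had 28.9% early and 73.3% late coverage, Itgb2l 68.3% and 70.7%, Itgb7 34.8% and 43.0%, Itgal 86.4% and 44.8%, Itgad 45.1% and 29.5%, and Itgae 49.9% and 31.5%. Itgam had 50.4% and Itgb2 60.1% early coverage, both with 0% late. Leukocyte and microglia marker genes had an early promoter peak in 8 of 8 and a late promoter peak in 4 of 8, against the same 94.2% and 68.5%. Their late region coverage ran from 3.45% to 31.3% and was above the median of all genes in 5 of 8. No late peak lay at the promoters of Ptprc, which encodes CD45, Csf1r, Aif1 and P2ry12. Cd68, Spi1, Tyrobp and Cx3cr1 had promoter peaks in both lists, although the Spi1 5′ window was free of peaks in both. The part of such cells in the integrin values was not tested. Itgad and Itgax are neighbours whose regions share 6.282 kb and 2 peaks of each list.

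By distance from the annotated 5′ end, coverage of the 80 genes was highest close to the start in both lists, without a steady rise toward it. Early coverage 5 to 10 kb upstream was 46.4% of the genes (44.4% over all genes), stood at 41.2% at 1000 bp upstream, and peaked at 67.5% at 400 and 600 bp downstream of the start. Late coverage was 16.2% (14.9% over all genes) and peaked at 27.5% at 200 bp upstream. At the 5′ end itself 22.5% of the 80 genes lay under a late peak, against 33.1% of all genes. Late coverage of the 80 genes was as high at some positions far from the start, with 23.8% at 7600 bp upstream. Each point of this profile rests on 80 genes, so that 1 gene moves it visibly.

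**Figure D3:**
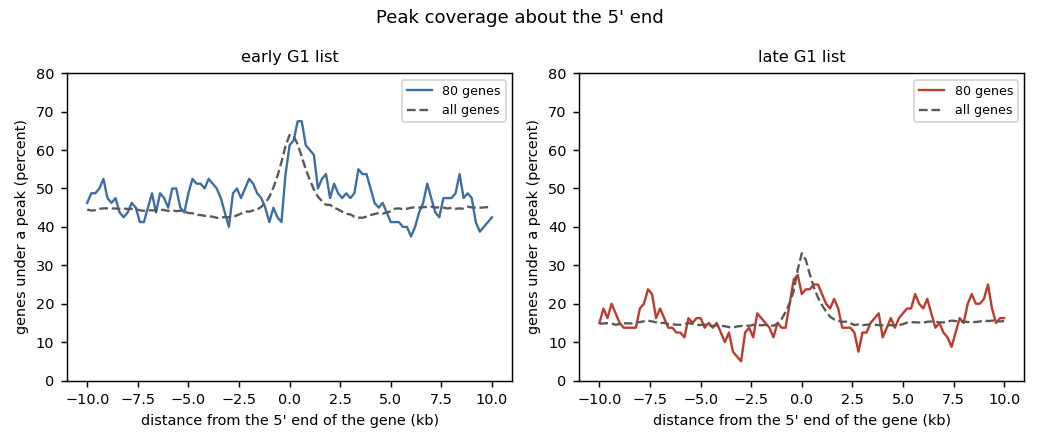
Percent of genes whose position lies under a peak, by distance from the annotated 5′ end in kb, for the 80 genes (solid) and for all autosomal protein-coding genes (dashed) in each list. At the start the late line of the 80 genes (22.5%) lies below that of all genes (33.1%).

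These genes are long, with a median region of 89.4 kb against 27.6 kb for all genes. They also held more peaks, with a median of 22.5 early and 14 late peaks, against 7 and 5. Per 100 kb the medians were 25.0 early and 16.5 late peaks, against 25.5 and 16.5 over all genes. Early peaks covered a median of 47.1% of the region (30.1% to 64.9%), against 45.9%, and late peaks 16.3% (5.93% to 31.9%), against 14.8%. In each list 47 of 80 genes lay above the median of all genes. Peak density in these regions was thus close to that of the genome's genes.

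Individual genes spread widely around these medians. Early coverage was highest at Col9a3 (64.9%), Lamc3 (63.8%) and Lama5, and lowest at Col11a1 (30.1%), Itgav and Col9a2 (35.6%). Late coverage was highest at Col5a3 (31.9%), Col27a1 (27.6%) and Col9a2 (27.4%), and lowest at Lamb2, Col11a1 (6.52%) and Itga4 (7.50%). Ranked among all genes within each list, the percentile was higher in the late than in the early list by 75.7 points at Col9a2, 59.6 at Itga10, 49.7 at Col7a1, 44.7 at Col8a1 and 42.8 at Itgb3. The difference, late minus early, was -83.2 points at Lamb2, -63.9 at Itga2b, -56.8 at Col1a2, -52.4 at Itga5 and -49.1 at Col3a1. The lists differ in length, so these ranks show where a gene stands in each list and no change between phases. Across the 80 genes, early and late region coverage had a Pearson's r of 0.31 and a Spearman's rho of 0.34.

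**Figure D4:**
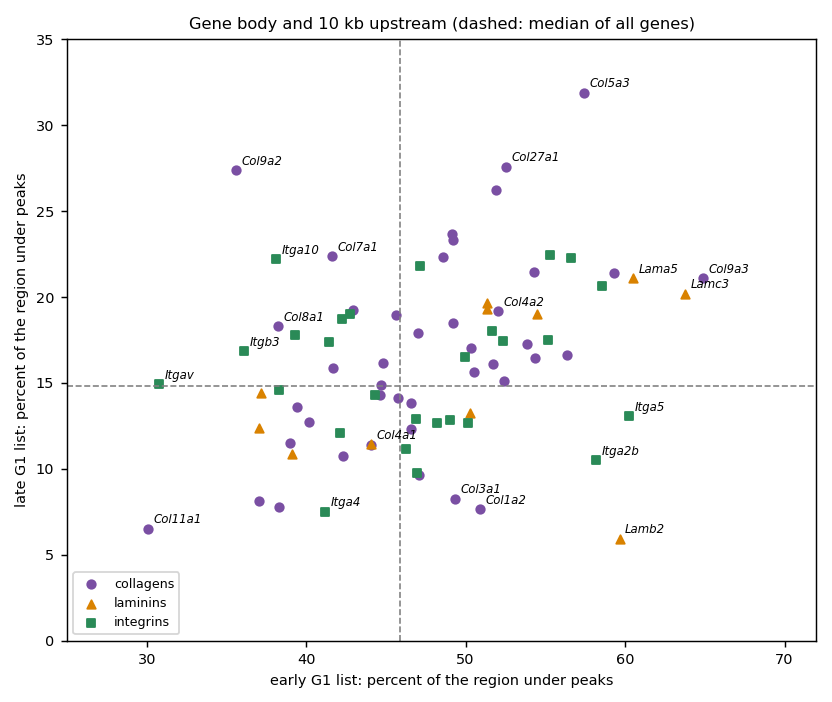
Percent of each gene's region (gene body and 10 kb upstream) under early G1 and under late G1 peaks, for the 80 genes (points, by family), with dashed lines for the medians of all autosomal protein-coding genes (45.9% early, 14.8% late). Lamb2 has high early and the lowest late coverage, and Col5a3 the highest late coverage.

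The regions together held 2279 early and 1472 late peaks. Of these, 998 early peaks (43.8%) overlapped a late peak, against 40.1% of all autosomal early peaks, and 1044 late peaks (70.9%) overlapped an early peak, against 68.3%. The median early peak was 1463 bp wide with a pileup of 28.08, against 1363 bp and 26.86 over the whole early list. The median late peak was 756.5 bp wide with a pileup of 56.7, against 688 bp and 51.23 over the whole late list. A 4-fold enrichment was reached by 2 early peaks, or 0.0878%, against 0.101% of the whole early list. It was reached by 734 late peaks, or 49.9%, against 49.2% of the whole late list. Peaks of these regions thus had the broad and low form of the early list and the narrow and tall form of the late list.

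Most peaks lay inside the genes, whose bodies take up most of these regions. Of the early peaks 1267 were intronic, 723 touched an exon, 160 lay upstream and 129 at a promoter, and of the late peaks 932, 357, 112 and 71. Late pileup was lowest at promoters, with a median of 45.27, against 55.19 at exons, 58.34 in introns and 63.22 upstream. The strongest late peak of a gene was at a promoter in 3 of 80 genes and in an intron in 42. Of all late peaks of these regions, 4.82% lay at a promoter and 63.3% in an intron.

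In the early list the highest pileups were 100.04 in an intron of Itgad (chr7:128186880-128189226), 63.74 at the intron element of Col4a2, 59.64 at Col20a1 and 55.42 at Col5a1. The intron element that Col4a1 and Col4a2 share was thus second only to the Itgad peak among all early peaks of the 80 regions. In the late list the highest pileups were 497.2 in an exon of Col14a1 (chr15:55518296-55518589), 431.51 upstream of Col5a3, 413.99 at Lama2, 403.18 at Col4a4 and 385.13 at Col19a1. Longer regions had higher maxima (Spearman's rho of region length and late maximum 0.58 over the 80 genes and 0.55 over all genes), so maxima of genes of unlike length are not comparable.

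**Figure D5:**
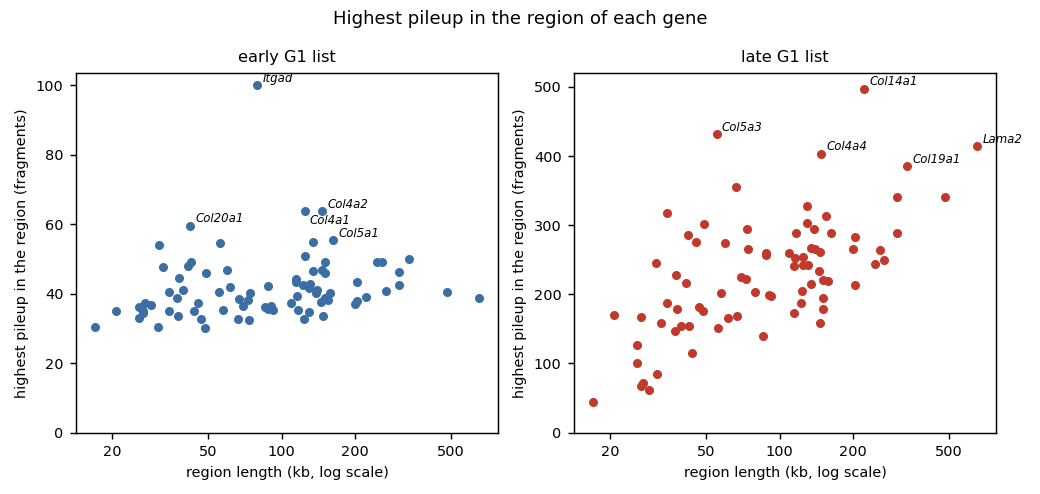
Highest pileup in fragments (vertical axis) in the region of each of the 80 genes (points) in the early G1 (left) and late G1 (right) lists, by region length in kb on a log axis. Late maxima reach 497.2 (Col14a1), early maxima 100.04 (Itgad), and the 2 lists are not scaled to each other.

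Other genes of the vessel matrix were read from 4 lists, 49 genes in all. Of these, 48 had an early and 40 a late promoter peak, against 94.2% and 68.5% of all genes, with which the counts of each list below are also to be read. The late list alone held that of 1 gene (2.75% of all genes), Fn1, which encodes fibronectin. Its 5′ window was free of early peaks and 47.6% under late peaks. Among the matrix partners, 11 of 12 had an early and 8 of 12 a late promoter peak. The nidogen Nid1 and the perlecan gene Hspg2, whose products join the laminin and collagen sheets, had early coverage of 50.8% and 45.3% and no late peak at the 5′ window. The other nidogen, Nid2, had 30.3% early and 31.1% late coverage. Among genes that make and cross-link collagen, 16 of 16 had an early and 13 of 16 a late promoter peak, with Lox, Loxl1 and Plod2 in the early list only. Among matrix proteases and their inhibitors, 7 of 7 had both. Among integrin adhesion genes, 14 of 14 had an early and 12 of 14 a late promoter peak, with Ilk and Fermt3 in the early list only.

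Defining genes of the sorted cells were read the same way. Of 12 endothelial markers, 10 had an early and 7 a late promoter peak, against 94.2% and 68.5% of all genes. Cdh5, Erg, Cldn5, Vwf, Egfl7 and Esam had both, although the Erg 5′ window was covered only 3.05% by early and 0% by late peaks. Kdr, Flt1, Emcn and Pecam1, the gene of the sorting antigen CD31, had an early peak only. The Pecam1 5′ window itself was free of peaks in both lists. Tie1 had a late peak only, and Tek had neither. Promoter peaks were also present at markers of other cells: in 8 of 8 early and 3 of 8 late for pericytes and smooth muscle, 8 and 6 for photoreceptors, 8 and 5 for astrocytes and Mueller glia, and 8 and 6 for retinal neurons. The part of other cells in the values of the collagens, laminins and integrins was not tested.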

How the data were processed

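The data were 2 deposited peak lists, 1 for each group, from 7 ATAC-seq libraries (3 early G1, 4 late G1). Reads were trimmed with Trimmomatic, aligned with STAR to mm10 and sorted with bedtools, per the labels' protocols. The authors' MACS2 version was 2.2.7.1, run in broad mode on merged fragments, per the file headers, with a lambda window of 10000 bp, all duplicates kept, no control, and q of 0.05 (narrow) and 0.1 (broad). Kept duplicates can raise pileup. The deposited columns used are pileup (a signal in fragments, not scaled to depth), fold enrichment (a ratio) and -log10 of q, whose damaged heading was read from the column order. The depth was 137191808 and 124693948 fragments, of mean length 230 and 236 bp.

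Coordinates are 1-based in mm10 (GRCm38), read with GENCODE M21, and sequences are from RefSeq's GRCm38 genome. Overlaps were computed in Python 3.11.15 with pandas 2.3.3, NumPy 2.4.6 and pysam 0.24.0 and checked on simulated intervals. Each group is 1 pooled list, so counts and medians are described beside those of all autosomal protein-coding genes, with no test.

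Members and lists were chosen with earlier results of these data known. Genes were named by role (type IV chains, chains known in endothelium, type I and III collagen, leukocyte integrins) and by value: every gene reached at its promoter by late peaks alone or by none, the 3 highest and lowest by coverage in each list, the 5 highest by pileup, and the 5 largest differences of percentile in each direction. Others were named to complete a group and were chosen after their values were seen. Alternatives varied the window, the overlap, the region and the list cut. Timp1 was not analysed, as only autosomal genes were used.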

Additional observations from a re-analysis of the deposited data

How the results depend on the processing

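The promoter counts and region medians kept within 1.5 times or within the 95% interval of the median when the window was 500 bp or 3 kb, when only the 5′ end was used, when 200 bp of overlap was asked for, and when the region was the gene body or took in 50 kb upstream. The values for the whole set numbered 40, with the highest pileup and fold, the list cuts and the alternative that counts Col4a3bp included. Of these, 33 stayed so and 7 moved, all 7 under cuts of the lists. With the peaks above each list's median -log10 q, 31 of 80 genes had a late promoter peak (32.0% of all genes), and the median region coverage was 27.7% early and 8.09% late. With the 180249 strongest peaks of each list, 35 genes had an early promoter peak (47.5% of all genes) and 31 a late promoter peak, and the median coverage was 15.0% early and 8.09% late. The late list alone then held 9 genes with that cut and 16 with equal numbers, against 8.89% and 15.2% of all genes. Fewer peaks were kept by construction. Counting Col4a3bp as a collagen, an alternative chosen after seeing the data, kept every one of these values within the same limits.

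No paired analysis was possible because each group was deposited as 1 pooled list, whose peaks carry no replicate number. Leaving out a replicate could not be run for the same reason. Peaks below a pileup of 19 are in neither list, so a bare start, as at Col4a1 and Col4a2, says that no peak was called there at this depth.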
